A study of Mus musculus with 6 samples.

Results

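Antigen receptors signal through a short chain of proteins next to the membrane. Of that chain, 9 genes were followed in mouse leukemia stem cells (LSCs) with and without conditional knockout of Piezo1, a mechanically activated ion channel. They were picked by symbol from the table of 55367 genes: the CD3 chains Cd3e, Cd3g and Cd247, the Syk family kinases Zap70 and Syk, the Src family kinases Lck and Fyn, and the adaptors Lat and Lcp2. All 9 had at least 1 read in at least 1 library, and 7 of them passed the filter on low values. Cd3e and Cd3g did not, and were not tested. Because the genes were picked with the contrast of these same libraries in view, their values are given as a description. No p-value is printed for them, and the number past the threshold of the fit over all genes is given only beside the share of all genes. Zap70 and Fyn passed the filter only through the group in which they were higher.

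LSCs of 2 groups were compared by RNA-seq, with 3 libraries of each. The Piezo1cko group came from Mx1-Cre; Piezo1fl/fl mice and the WT group from Piezo1fl/fl mice without Cre, so the floxed alleles were shared by both groups, as was the poly(I:C) given to induce Cre. Mx1-Cre is driven by an interferon-inducible promoter that is active well beyond the blood stem cell. Lineage-negative marrow cells of mice aged 8 to 10 weeks were transduced with an MLL-AF9 retrovirus carrying YFP and transplanted into irradiated recipients, and LSCs were sorted as YFP+ Lin- Sca-1- c-Kit+ CD34+ CD16/32 high cells. The labels do not say whether the libraries of a group came from separate mice, or from which round of transplantation, so every p-value below measures only the spread between these libraries.

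In a T cell, the cytoplasmic tails of the CD3 chains carry tyrosine motifs (ITAMs) that Lck and Fyn phosphorylate once the receptor is engaged. Zap70 docks on the phosphorylated motifs and in turn phosphorylates Lat and Lcp2 (SLP-76), the scaffolds on which phospholipase C gamma and the Vav exchange factors assemble. Myeloid and B cells run the same scheme with other parts, with Syk in the place of Zap70, Lyn among the kinases in the place of Lck, and Fc receptor or DAP12 chains in the place of CD3.

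The recovered reads on genes numbered 14112097 to 15483584 per library. They were obtained by undoing the transform of the deposited log2 values, which pulls every gene towards its own mean over the 6 libraries and so makes differences smaller, most of all in genes with few reads. Reads are given below as recovered, normalized reads are reads divided by the library's size factor, and differences on the deposited log2 scale are named as such. No library stood apart. The median squared difference between 2 libraries of the same group was 1.45 to 2.05 times that of counting noise. Between libraries of different groups it was 16.7 to 18.8 times. Piezo1 had 104, 92 and 113 reads in the WT libraries and 35, 58 and 45 in the Piezo1cko libraries, so it was lower but not absent in the latter. The genes that mark the gated population were present, with Kit at 2522 ± 58.4 normalized reads in WT and 3425 ± 86.8 in Piezo1cko libraries, Cd34 at 3721 ± 60.1 and 5796 ± 162, and Fcgr3 (CD16) at 5405 ± 113 and 5323 ± 168 (mean ± SD, n = 3 each). Fcgr2b, the other Fc receptor of the sort gate, was also present but fell from 3468 ± 83.8 to 1667 ± 79.4, which is 48% of WT. Of the 12 genes listed for these cells 4 rose and 6 fell, beside 31.6% and 31.4% of all genes tested. Hoxa9 was level, at 3422 ± 105 and 3436 ± 235 normalized reads, and Meis1 was at 86.8% of WT. The summed level of the 12 genes went from between 547600 and 588600 normalized reads in WT to between 295300 and 317200. Most of that sum was the granule genes Mpo and Elane, at 54.5% and 47.0% of WT, and Prtn3 was at 54.6%. The part of this change in the members' values was not tested.

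The groups differed at most genes. On the deposited log2 scale, 63.0% of the 16746 genes tested had an adjusted p under 0.05 by limma with Benjamini-Hochberg adjustment, 31.6% higher and 31.4% lower in Piezo1cko LSCs. The split was 5298 higher and 5258 lower, and became 6450 higher and 4214 lower when every library was re-centred on the same median. Of the 7 members tested, 5 passed that threshold, Zap70 and Lck being higher and Fyn, Lat and Lcp2 lower. None of them met the DEG rule (the same threshold together with a log2 difference beyond 1 in either direction), which 0.818% of all genes met. On recovered reads the same rule was met by 24.9% of all genes and by Zap70 and Fyn among the members. The normalized reads of the groups did not overlap for 66.2% of genes, and did not overlap for 4 of the 7 members (Zap70 higher, and Fyn, Lat and Lcp2 lower). These shares describe the members and nothing is read from them.

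Zap70, the kinase that reads out the T cell receptor, was the member with the largest rise. It had 0, 1 and 0 reads in WT replicates 1 to 3, and 56, 46 and 70 reads in Piezo1cko replicates 1 to 3. The gene was thus close to absent from every WT library and present in every Piezo1cko library, with no overlap. In normalized reads, Piezo1cko libraries held 58.2 ± 13.2 (SD, n = 3) and WT libraries 0.336 ± 0.583. With 1 WT read in all, the ratio of 178 has a 95% counting interval of 31.4 to 7052, which covers counting error only. On the deposited log2 scale the same difference was 0.42 (SE 0.035), from 4.469 to 4.888. On log2 recovered reads it was 6.35 (SE 0.65) in a limma-voom fit. That fit adds a small constant to every count, so 6.35 lies below the log2 of the ratio above. Zap70 lies on the forward strand of chr1:36761798-36782818 (GRCm38). In libraries made from many cells, a few cells with much Zap70 RNA and many cells with little cannot be told apart.

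Syk, the relative of Zap70 that serves Fc receptors, integrins and lectin receptors in myeloid cells, stayed far above it. It had 2325, 2261 and 2458 reads in the WT libraries and 2189, 2233 and 2173 in the Piezo1cko libraries. Normalized reads were 2301 ± 56.9 and 2225 ± 56.3 and overlapped between groups, with a ratio of 0.966 (counting interval 0.934 to 0.999). The deposited log2 difference was -0.03 (SE 0.028). Of the normalized reads per kilobase of exon of the 2 kinases together, Zap70 made up 0%, 0.138% and 0% in the WT libraries and 7.41%, 6.06% and 9.16% in the Piezo1cko libraries. All 3 Piezo1cko shares lay above all WT shares, while Syk remained the more abundant kinase in every library. The deposited log2 value of Zap70 minus that of Syk went from -6.675, -6.676 and -6.723 in WT to -6.263, -6.294 and -6.157 in Piezo1cko libraries, a change of 0.45, which is 6.39 on log2 recovered reads. Syk lies at chr13:52583173-52648792, on the forward strand.

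Lck, the Src family kinase bound to CD4 and CD8 in T cells, had 54, 59 and 56 reads in the WT libraries and 83, 61 and 102 in the Piezo1cko libraries. Piezo1cko replicate 2 was level with WT, at 59.5 normalized reads beside 59.5 in WT replicate 2, so the groups just overlapped although the means differed by 1.502-fold (counting interval 1.23 to 1.84). Normalized reads were 55.3 ± 3.77 in WT and 83.3 ± 22.4 in Piezo1cko libraries. The deposited log2 difference was 0.15 (SE 0.047), and Lck dropped out of the 5 members past the threshold without WT replicate 1, WT replicate 3 or Piezo1cko replicate 3. Lck lies on the reverse strand of chr4:129548344-129573641.

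Fyn, the other Src family kinase of the T cell receptor, moved the other way. It had 15, 8 and 12 reads in the WT libraries and 0, 2 and 0 in the Piezo1cko libraries. It was low in WT and close to absent in Piezo1cko libraries, and the groups did not overlap. The 35 WT reads against 2 Piezo1cko reads give a 17.0-fold higher level in WT, with a counting interval of 4.36 to 146. Because of the pull towards the mean, the deposited log2 difference was only -0.08 (SE 0.016). Fyn lies on the forward strand of chr10:39368855-39565381.

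Lcp2, which encodes the scaffold SLP-76, showed the largest fall on the deposited scale and was the most abundant of the 9 genes per kilobase of exon in both groups. It had 2295, 2194 and 2157 reads in the WT libraries and 1213, 1281 and 1134 in the Piezo1cko libraries. The Piezo1cko libraries lay close together and far below every WT library. Normalized reads were 2172 ± 84.1 and 1223 ± 60.8, so Piezo1cko LSCs held 56.3% of the WT level. The deposited log2 difference was -0.57 (SE 0.032), and -0.83 (SE 0.046) on log2 recovered reads. Lcp2 lies on the forward strand of chr11:34046920-34092295.

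Lat, the membrane scaffold that Zap70 phosphorylates beside SLP-76, had 53, 45 and 47 reads in the WT libraries and 33, 27 and 29 in the Piezo1cko libraries. Every Piezo1cko library was below every WT library. The Piezo1cko mean was 63.4% of the WT mean, at 30.1 ± 4.11 beside 47.4 ± 3.53 normalized reads, with a deposited log2 difference of -0.11 (SE 0.033). Lat lies on the reverse strand of chr7:126363824-126369570.

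The CD3 chains were at or near the lower limit of these libraries. Cd3e, the chain most used to identify T cells, had 1 read in WT replicate 1 and 0 in the other 5 libraries. Cd3g had 3, 2 and 2 reads in the WT libraries and 0 in all Piezo1cko libraries. Against a floor of 3 reads over the group, Cd3g was at least 2.26-fold lower in Piezo1cko LSCs, and the 95% counting interval of that ratio reached down to 1.40-fold. Cd247, the zeta chain with the most ITAMs, had 7, 3 and 0 reads in WT and 2, 0 and 4 in Piezo1cko libraries. Its groups overlapped, with 3.27 ± 3.40 and 2.05 ± 2.04 normalized reads, and no difference was detectable at this depth.

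Cd3g and Cd3e are neighbours of Cd3d, the delta chain, within 40.1 kb of chromosome 9. Cd3g lies at chr9:44969572-44980431 and Cd3e at chr9:44998740-45009627, both on the reverse strand. Cd3d, which was not among the 9 genes, had 7, 5 and 4 reads in WT and 0, 2 and 0 in Piezo1cko libraries. All 3 genes of the locus thus had 0 to 2 reads in every Piezo1cko library, in which Zap70 had 46 to 70. Cd247 lies at chr1:165788681-165877277, where its last part overlaps Pou2f1, a gene on the other strand with 245, 226 and 276 reads in WT and 163, 141 and 149 in Piezo1cko libraries. Whether the counting used strand is not given in the sources used here, so reads in that overlap cannot be told apart.

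**Figure D1:**
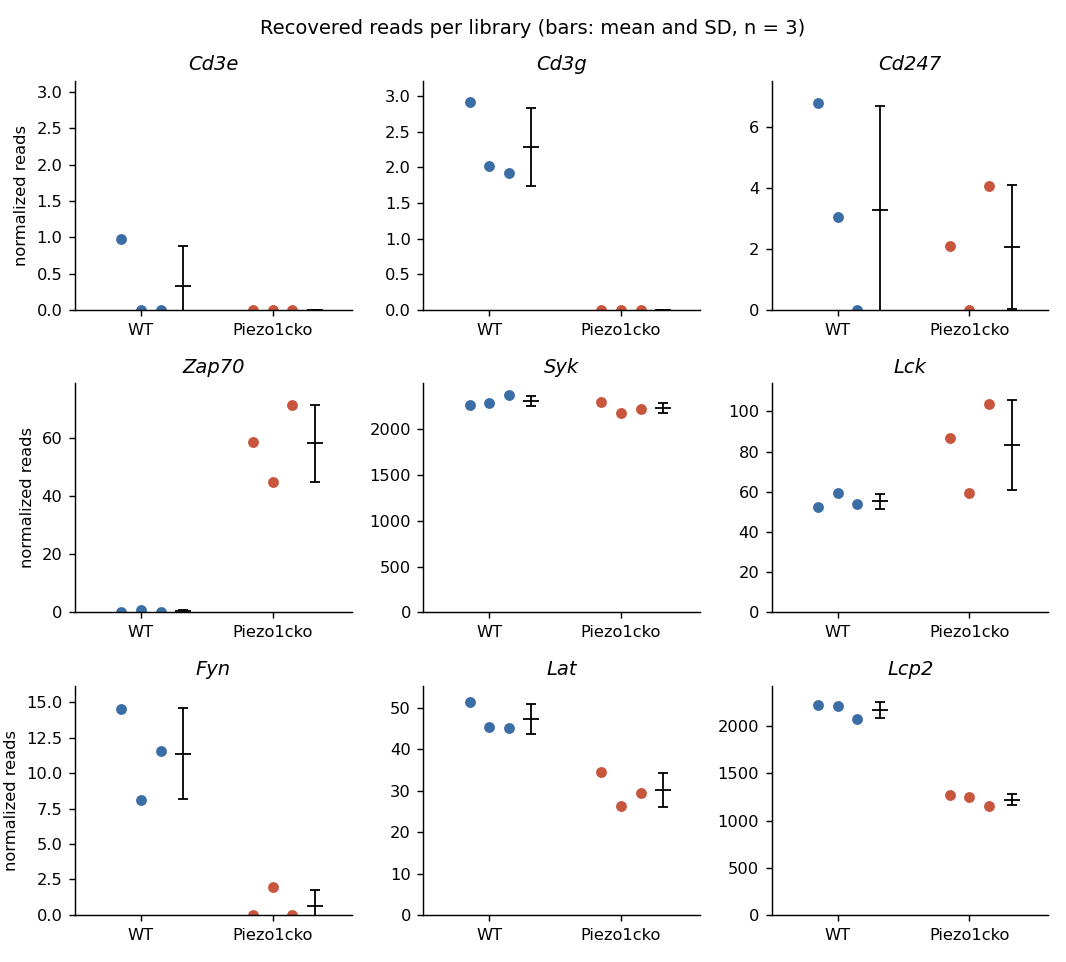
Normalized recovered reads of the 9 genes (vertical axes, each starting at 0) in the 3 WT libraries (blue points) and the 3 Piezo1cko libraries (red points), with the mean and SD of each group in black and the lower bars ended at 0. Zap70 rises from at most 1 read to between 44.8 and 71.2 normalized reads, Lcp2, Lat and Fyn fall without overlap, and Syk and Lck overlap between groups.

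The Piezo1cko libraries did not vary together across the members. Zap70, Lck and Cd247 were lowest in Piezo1cko replicate 2 and highest in replicate 3, from 44.8 to 71.2 normalized reads for Zap70 and from 59.5 to 104 for Lck. Lat was also lowest in replicate 2 but highest in replicate 1, Lcp2 was lowest in replicate 3, and Fyn had its 2 reads in replicate 2.

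Per kilobase of exon, the order of the levels in WT was Lcp2 (487 normalized reads per kilobase), Syk (246), Lck (18.9), Lat (17.1), Fyn (2.61), then Cd3g (0.699), Cd247 (0.614), Zap70 (0.112) and Cd3e (0.0793). Lck and Lat lay next to each other within their spread (SD 1.288 and 1.276), and among the last 4 each gene overlapped the next. In Piezo1cko libraries the order was Lcp2 (274), Syk (238), Lck (28.5), Zap70 (19.5), Lat (10.9), Cd247 (0.385) and Fyn (0.149), with Cd3g and Cd3e at 0. Of the neighbours in that order, Lck and Zap70 overlapped, as did Cd247 and Fyn. Zap70 thus moved from among the lowest of the 9 genes to a level near that of Lck, whose libraries spanned 20.3 to 35.4 against 14.99 to 23.8 for Zap70.

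The windows of 250 bases before the start of Zap70 and of Lcp2 are shown because these were the members with the largest rise and the largest fall on the deposited scale. They are from RefSeq, on the forward strand of GRCm38.p6, at chr1:36761548-36761797 and chr11:34046678-34046927. All 9 members had an entry, and the window of Zap70 is that of 1 of 3 listed starts. RefSeq starts Lcp2 a few bases after the start given above from GENCODE, so the end of its window lies within the gene as placed there. Capitals mark matches, on either strand, to letters used by blood transcription factors, which were chosen after the sequences had been read: CCGGAA for ETS factors, TGACGTCA for the cAMP response element, AGATAA for GATA factors, CAGCTG as an E-box of basic helix-loop-helix factors and TGTGGT for RUNX factors.
Zap70: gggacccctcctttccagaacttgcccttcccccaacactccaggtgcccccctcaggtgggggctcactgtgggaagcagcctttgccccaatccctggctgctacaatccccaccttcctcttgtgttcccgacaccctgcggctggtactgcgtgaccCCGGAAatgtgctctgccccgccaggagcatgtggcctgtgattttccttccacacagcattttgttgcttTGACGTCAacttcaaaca
Lcp2: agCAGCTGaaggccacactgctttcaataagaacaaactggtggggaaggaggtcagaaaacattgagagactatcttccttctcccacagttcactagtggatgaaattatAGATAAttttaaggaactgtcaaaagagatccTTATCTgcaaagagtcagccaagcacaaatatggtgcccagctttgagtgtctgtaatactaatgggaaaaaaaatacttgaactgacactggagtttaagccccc
The Zap70 window holds 1 match to CCGGAA and 1 to TGACGTCA, and the Lcp2 window 2 to AGATAA, 1 of them on the reverse strand, and 1 to CAGCTG. The matches do not overlap each other. Among 32851 windows of the same length, 12% held CCGGAA, 1.55% TGACGTCA, 9.99% AGATAA, 13.0% CAGCTG and 14% TGTGGT. A match is a run of letters and not a shown site.

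The lists of surrounding genes and of markers were, like the members, chosen with earlier results of these libraries known, so their counts and p-values are not independent evidence of a direction. Listed genes with next to no reads in 1 group passed the filter only through the other group, which fixed their direction. The counts of genes that rose or fell in each list below stand beside 31.6% higher and 31.4% lower among all genes tested.

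Of the Src family around the 2 members, Lyn, which phosphorylates ITAMs and inhibitory motifs in myeloid and B cells, had 373 normalized reads per kilobase in WT and 491 in Piezo1cko libraries, and rose (deposited log2 difference 0.27, SE 0.030, adjusted p = 3.23e-07 by limma). It was far above Lck (18.9 and 28.5) and Fyn (2.61 and 0.149) per kilobase in both groups. Fgr, a myeloid member of the family, fell from 95, 81 and 100 reads to 2, 1 and 5 reads (-0.59, SE 0.034, adjusted p = 3.98e-11), the same direction as Fyn. Src had 6, 4 and 7 reads in WT and 0 in every Piezo1cko library, at least 5.49-fold lower against the floor, with a counting interval that reached down to 3.998-fold. Blk and Srms had no reads.

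Of the kinases that act on the Src family, Matk, which phosphorylates its inhibitory tail tyrosine, rose from 759 ± 33.2 to 1482 ± 25.5 normalized reads (deposited log2 difference 0.64, adjusted p = 4.49e-12 by limma). Csk, the main kinase of that tyrosine, had 416 ± 20.04 and 379 ± 5.07 (adjusted p = 0.0826).

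Tec family kinases act after Zap70 or Syk to phosphorylate phospholipase C gamma. Btk, the member of B and myeloid cells, made up most of the family at 828 normalized reads per kilobase in WT and 1121 in Piezo1cko libraries, and rose (deposited log2 difference 0.31, SE 0.025, adjusted p = 5.22e-09 by limma). Tec rose from 138 ± 17.4 to 167 ± 12.4 normalized reads (adjusted p = 0.0295), and Bmx fell from 184 ± 20.3 to 121 ± 14.5 (adjusted p = 0.000144). Txk, a T cell member, had 1 read in all 6 libraries together.

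**Figure D2:**
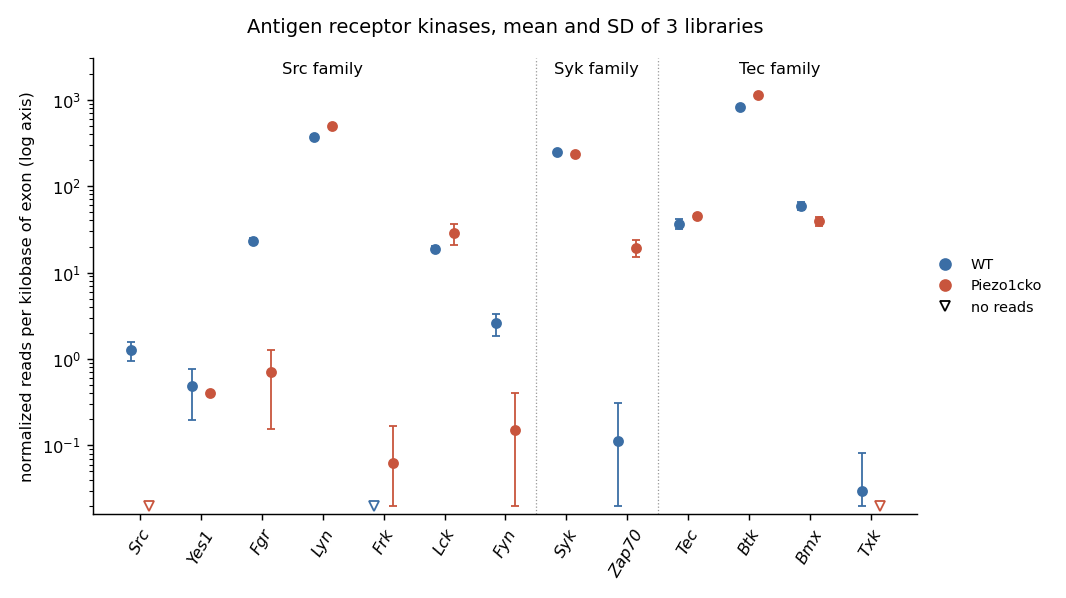
Normalized reads per kilobase of exon (vertical, log axis) of Src, Syk and Tec family kinases described in the text, with Yes1 and Frk, as the mean and SD of 3 WT libraries (blue) and 3 Piezo1cko libraries (red). Lower bars that would reach 0 end at the foot of the axis, open triangles mark groups with no reads, and not every kinase of these families is plotted. Of those plotted, Btk, Lyn and Syk are the highest in both groups, while Zap70 goes from 0.112 to 19.5 and Fgr from 23.3 to 0.703.

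The receptor chains that would sit above these kinases changed in both directions. Of 12 T and B cell receptor chains and co-receptors, 9 had reads and 6 were tested on the deposited scale, of which 5 rose and 1, Cd3d, fell. Cd28, the T cell co-stimulatory receptor, rose from 172, 156 and 163 reads to 268, 292 and 254 (deposited log2 difference 0.35, adjusted p = 2.04e-07 by limma). Trac, the constant region of the receptor's alpha chain, had 5, 2 and 2 reads in WT and 17, 16 and 13 in Piezo1cko libraries, and Trdc, that of the delta chain, had 0 in WT and 3, 7 and 4. Cd79b, the ITAM chain of the B cell receptor, rose from 1563 ± 33.2 to 2487 ± 113 normalized reads, while Cd79a, its partner, was at 6.85 ± 0.860 and 13.9 ± 3.80. Cd8a and Trbc2 had no reads in any library.

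Of 16 ITAM adaptors and receptors of myeloid cells, 15 were tested, of which 9 rose and 1 fell. Fcer1g, the common Fc receptor gamma chain on which Syk docks, rose from 2744 ± 89.5 to 3546 ± 7.01 normalized reads (deposited log2 difference 0.27, adjusted p = 6.95e-08 by limma). Tyrobp, which encodes DAP12, rose by 1.08-fold and its normalized reads overlapped between groups (adjusted p = 0.0204). The 1 that fell was Fcgr2b, the inhibitory Fc receptor, from 3665, 3428 and 3523 reads to 1662, 1728 and 1553 (-0.75, adjusted p = 1.29e-13). The inhibitory receptor Pirb moved against it, from 187 ± 8.12 to 473 ± 27.2 normalized reads (0.70, adjusted p = 1.71e-11).

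Among the other adaptors, 22 of 26 were tested, of which 10 rose and 6 fell. Lat2, a relative of Lat in mast, B and myeloid cells, had 2887, 2840 and 2982 reads in WT and 4836, 5207 and 4959 in Piezo1cko libraries, a rise of 0.60 on the deposited log2 scale (adjusted p = 1.31e-13 by limma) where Lat itself was lower. Fyb, which binds SLP-76, rose from 153 ± 13.1 to 481 ± 37.2 normalized reads (0.84, adjusted p = 4.23e-12), and the docking proteins Gab3 and Dok3 rose by 2.55-fold and 1.57-fold. Dok2, a docking protein that restrains Ras, fell to 43.0% of WT and Pik3ap1, which recruits phosphoinositide 3-kinase, to 64.4%. Grap2 (GADS), the bridge between Lat and SLP-76, had 0 reads in WT and 7, 9 and 6 in Piezo1cko libraries, and is named after its values were seen. The T cell adaptor Themis and the T cell surface receptor Cd6 went the other way, Themis from 10, 7 and 9 reads to 0 in every Piezo1cko library and Cd6 from 30, 36 and 34 reads to 0, 1 and 0.

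All 18 negative regulators were tested, of which 10 rose and 4 fell. The 6 with the largest differences in reads were the phosphatases Ptpn7 (1.32-fold), Ptpn22 (1.18-fold) and Ptprc (CD45, 1.16-fold, which can also activate Src family kinases), the adaptor Sla (1.65-fold) and the lysosomal protein Laptm5 (1.15-fold), which rose, and the phosphatase Ptpn2, which fell to 79.5% of WT. Of 25 downstream effectors, 24 were tested, of which 9 rose and 8 fell. Pik3r1, the regulatory subunit of phosphoinositide 3-kinase, rose by 1.61-fold and its catalytic partner Pik3cd by 1.278-fold. Vav1, which binds SLP-76, rose by 1.07-fold (adjusted p = 0.0177 by limma) and the actin regulator Was by 1.16-fold, while its partner Wipf1 fell to 77.3% and the Ras activator Rasgrp2 to 81.0% of WT.

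Over all 7 lists of surrounding genes, 96 of 112 were tested, of which 48 rose and 23 fell on the deposited scale, beside 31.6% and 31.4% of all genes. Their median deposited log2 difference was 0.05, beside 0.00 over all genes tested. On recovered reads 98 were tested, and 11 rose and 11 fell by the DEG rule, beside 12.7% and 12.2% of all genes.

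**Figure D3:**
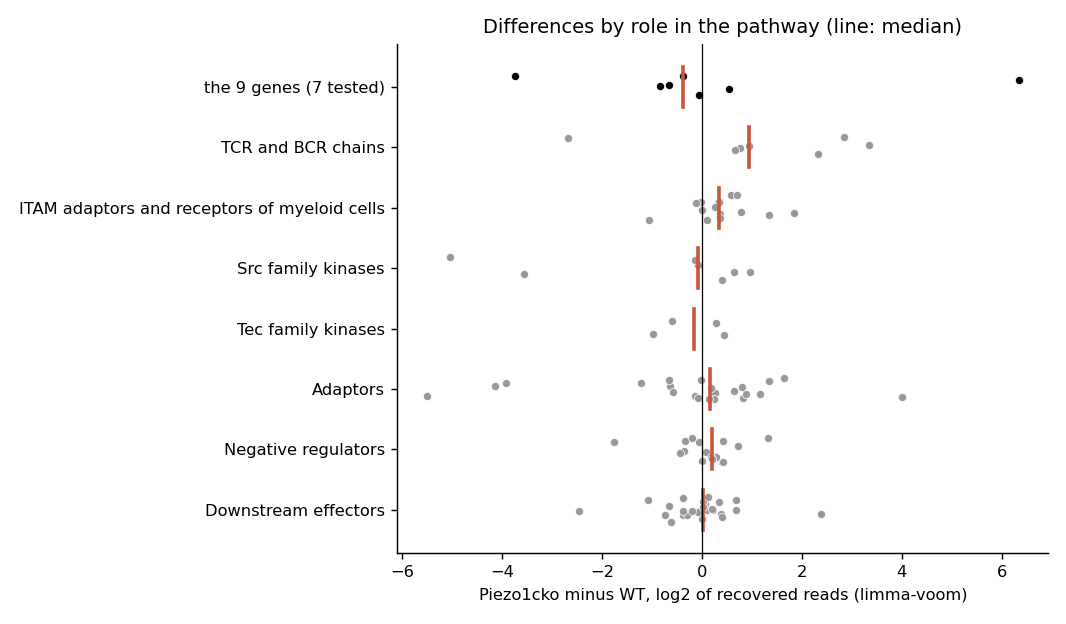
Differences between Piezo1cko and WT LSCs on log2 recovered reads (horizontal) for the 7 tested members (black) and for the surrounding genes by list (grey), 1 point per gene with vertical scatter for legibility, and the median of each row as a red line. Zap70 at 6.35 and Fyn at -3.73 lie at the 2 ends of the members, and the rows of surrounding genes lie on both sides of 0.

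Genes that mark other cells with antigen receptor signaling were read beside the members, and the part of such cells in the values of Zap70, Lck and the other members was not tested. Of 15 T cell markers, 13 had reads and 9 were tested, of which 4 rose and 4 fell, beside 31.6% and 31.4% of all genes. Their summed level was 849.5 to 888.8 normalized reads in WT and 1243 to 1272 in Piezo1cko libraries, most of it from Ubash3a (618 ± 5.05 and 833 ± 7.24) and Cd28, a pair also in the lists above. Of the defining markers, Cd8a and Trbc2 had 0 reads in every library, Cd4 had 2 reads in WT replicate 2 and Cd8b1 had 1 in WT replicate 1. Trbc1 had 0 reads in WT and 4, 1 and 6 in Piezo1cko libraries, and the early T cell factors Bcl11b and Tcf7 had at most 3 reads in a Piezo1cko library. Il7r, the interleukin-7 receptor of lymphoid progenitors and T cells, rose from 34, 31 and 24 reads to 124, 109 and 142. Il7r and Trbc1 were lowest in Piezo1cko replicate 2 and highest in replicate 3, as Zap70 was. Trac was instead lowest in replicate 3 and highest in replicate 1, and the NK cell genes Klrb1c and Gzmb were lowest in replicate 1. The order of the libraries was looked at in only these markers. With 3 libraries, unrelated genes can share an order, and Trbc1 rests on 4, 1 and 6 reads, so nothing is read from the order.

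Zap70 also serves NK cells, for which 10 of 12 markers had reads and 4 were tested, of which 3 rose and 1 fell. Klrb1c (NK1.1) had 0 reads in every WT library and 32, 38 and 52 in Piezo1cko libraries, and Gzmb, a granzyme, 0 in WT and 17, 25 and 30. These are at least 42.0-fold and 24.8-fold higher against the floor of 3 reads over the group, with 95% counting intervals that reached down to 33.6-fold and 19.6-fold. In Piezo1cko libraries the normalized reads of Klrb1c (33.4 to 52.9) overlapped those of Zap70 (44.8 to 71.2), and those of Gzmb (17.8 to 30.5) lay below. Some other defining markers were at or near 0 in Piezo1cko libraries, with Klrd1, Prf1, Tbx21, Klrc2 and Il2rb at 0 reads and Ncr1 at 2 reads in 1 library. Gzma, another granzyme, had 0, 1 and 0 reads in WT and 10, 5 and 7 in Piezo1cko libraries, and the factor Eomes 0 in WT and 1, 2 and 4. Klrb1c, Gzmb and Gzma, the 3 that rose, passed the filter only through the Piezo1cko libraries. The summed level of the list fell from 3993 to 4177 normalized reads in WT to 2503 to 2548, almost all of it Nkg7, which was at 4095 ± 93.9 and 2457 ± 26.3.

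**Figure D4:**
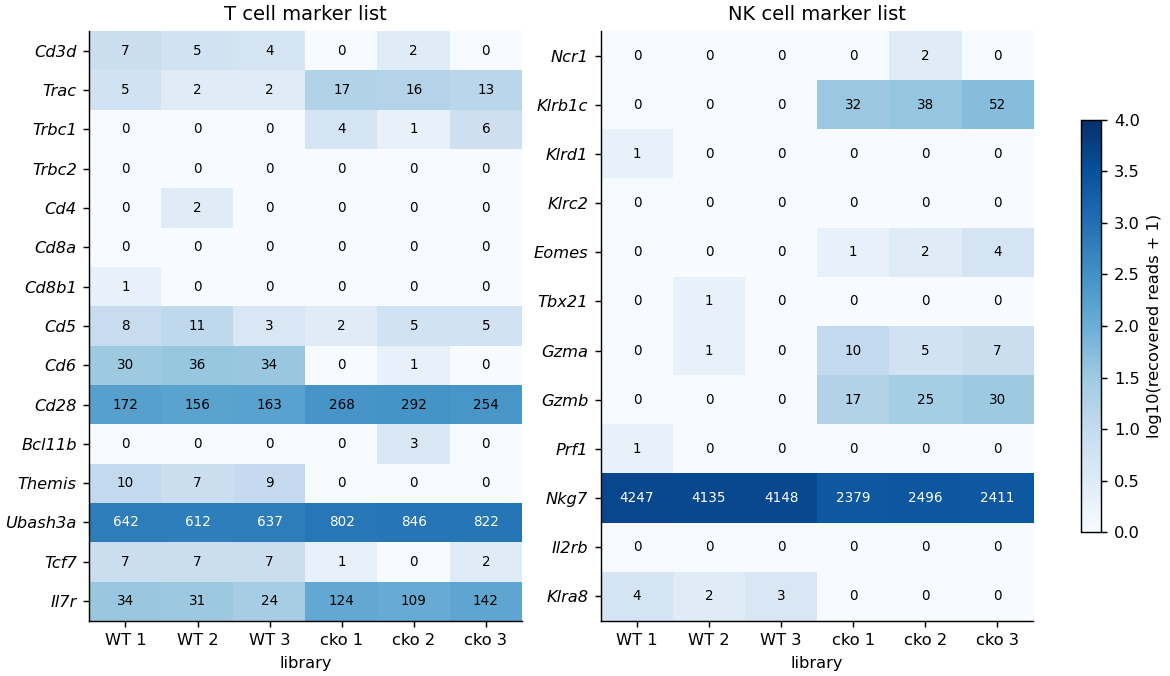
Recovered reads of the T cell and NK cell marker genes (rows) in the 3 WT and 3 Piezo1cko (cko) libraries (columns), printed in each cell and shaded by log10(reads + 1). Trac, Klrb1c, Gzmb and Il7r are higher in the Piezo1cko libraries and Cd3d, Cd6, Themis and Tcf7 lower, while Cd8a, Trbc2, Klrc2 and Il2rb have 0 reads throughout.

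Mast cells and basophils signal from the IgE receptor through Syk, Lyn, Lat, Lat2 and SLP-76. Of their 12 markers 11 were tested, of which 9 rose and none fell, beside 31.6% and 31.4% of all genes. Cpa3, a mast cell protease, rose from 565 ± 30.6 to 5002 ± 185 normalized reads (2.19 on the deposited log2 scale, adjusted p = 5.47e-20 by limma), and Ms4a2, the beta chain of that receptor, from 22, 20 and 19 reads to 77, 66 and 73. The summed level of the list was 5088 to 5319 normalized reads in WT and 16020 to 16130 in Piezo1cko libraries. Of the other proteases on the list, Mcpt4 had 1 read in all. Cma1 went from 0 to 23, 20 and 17 reads and Tpsb2 from 0, 1 and 0 to 21, 17 and 19. Mcpt8 rose by 2.02-fold and Prss34 by 1.95-fold. Lat and Lcp2, which these cells also use, were lower in the same libraries.

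For B cells, 10 of 12 markers had reads and 7 were tested, of which 5 rose and none fell, with a summed level of 12230 to 12590 normalized reads in WT and 22380 to 22770 in Piezo1cko libraries, most of it Ighm. Blnk, the B cell relative of Lcp2, had 0 reads in every library. Platelets use Syk and SLP-76 below their collagen receptor. Of 10 megakaryocyte and platelet markers 8 were tested, of which 2 rose and 5 fell, and the summed level was 374.2 to 428.9 normalized reads in WT and 291.0 to 327.5 in Piezo1cko libraries. Gp6, the collagen receptor itself, had 12, 16 and 11 reads in WT and 0 in every Piezo1cko library. Of 8 plasmacytoid dendritic cell markers all 6 tested rose, with a summed level of 6592 to 6912 and then 8851 to 9325 normalized reads, most of it Irf8 and Tcf4, and Siglech, a more specific marker, had 0, 1 and 0 reads in WT and 8, 6 and 9 in Piezo1cko libraries.

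The genes whose deposited log2 values ran most like those of Zap70 over the 6 libraries, out of 10256 genes averaging 50 reads or more, were Huwe1 (Pearson r = 0.9996), Gm13456 (0.9979) and Lgr4 (0.9974). Gm13456 had 21, 23 and 17 reads in WT and 83, 72 and 97 in Piezo1cko libraries. For Lcp2 they were Uap1 (0.9994), Bicd2 (0.9993) and Pbk (0.9991), and Uap1 had 919, 854 and 863 reads in WT and 507, 537 and 474 in Piezo1cko libraries. The 6 points fall into 2 groups that lie apart, so r here reads mainly the difference between the groups, and many genes reach values close to these.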

How the data were processed

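RNA-seq libraries of sorted LSCs, 3 WT and 3 Piezo1cko, were grouped by their labels. Per the submitters' processing notes, the authors used fastp (0.20.1), HISAT2 (2.2.1) on GRCm38, featureCounts (2.0.1) and DESeq2 (1.28.1). The deposited values are log2 values normalized by the authors, of the form of a regularized log, although the transform is not named in the sources used here. They run from -1.97 to 18.06 for 26402 genes, and 28965 genes are listed at 0 in all libraries.

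The members and the gene lists were chosen with earlier results of these data known. Genes with a deposited mean of at least 1 (16746) were tested with limma (3.58.1, R 4.3.3), using lmFit and eBayes (trend), no covariates, two-sided p-values and Benjamini-Hochberg adjustment over all genes. Since the unit is log2 no count model was used as the main test.

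The transform was undone by fitting size factors, the strength of the pull and the dispersion trend, so that reads came out whole (the best fit was reached by 2 of 40 starts). Within 0.1 of a whole number lay 93.24% of all values and 69.66% of those of genes with a mean of 1000 reads or more, against 23.59% at means of 1 to 1000 with the pull set 10% off. Among the members the largest distance was 0.175, for Fyn. Values were rounded. The step returned 100% of reads exactly on simulated data of these libraries. Whether the deposited transform has the fitted form was not tested in this way. Recovered reads entered a limma-voom fit of the 17352 genes that had 10 or more reads over the 6 libraries. It adds a small constant to every count before the log, so its log2 differences fall short of the printed ratios for genes near 0 reads. In simulations 200 genes were changed, all with more reads than Fyn or the CD3 chains and by log2 differences beyond 1. Both fits called all 200, which does not extend to genes with few reads or to smaller differences. The deposited scale kept 0.576 (median) of the log2 difference put in (16727 genes). Size factors ran from 0.957 to 1.04. Intervals of ratios are exact binomial (95%) and cover counting error only, since reads carry no molecular identifiers. A group at 0 was set to 3 reads over the group.

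Exon lengths and positions are from GENCODE M21 (GRCm38), where 96.7% of genes with values had a length. Besides the members and Piezo1, genes were named from lists of up to 16 genes, or as the 6 with the largest difference in reads among those past the threshold in longer lists, and as the 3 with the most similar profile. With 3 against 3 libraries no exact permutation test can give a two-sided p under 0.1. Some genes of the lists count in the list totals but are not reported here by name. Alternatives were other filters, re-centring, recovered reads with 2 scalings, a replicate block, no fold change threshold and each library left out. Figures and summaries used Python 3.11.15, numpy 2.4.6, scipy 1.17.1, pandas 2.3.3 and matplotlib 3.10.9.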

Additional observations from a re-analysis of the deposited data

How the results depend on the processing

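Fold changes depended most on the scale. The number of genes past the DEG rule was 137 on the deposited values, 4322 on recovered reads with size factors, 4333 with library totals and 10556 without the fold change threshold, and 136 of the 137 were also DEGs on recovered reads with size factors. The change of Zap70 minus Syk was 0.45 on the deposited scale and 6.39 on recovered reads under both scalings, since the deposited transform pulls genes with few reads towards their mean. With a mean of at least 50 reads required, only 3 of the 7 members could be tested and 2 were called, and 15 marker genes of other cells rose and 2 fell in place of 29 and 10. With no filter 6 members were called, the added one being Cd3g. Cd247 changed sign when libraries were re-centred, from -0.01 to 0.01, and was called under neither. With 1 library left out, the genes past the DEG rule numbered 134 to 144 and those past the adjusted p 9596 to 10121, the members called 4 to 5 (Lck being lost without WT replicate 1, WT replicate 3 or Piezo1cko replicate 3), the surrounding genes that rose 44 to 47 and that fell 21 to 24, the markers that rose 26 to 29 and that fell 10 to 11, and the change of Zap70 minus Syk 0.41 to 0.48.

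The replicate numbers were not taken to pair the libraries, as same-numbered WT and Piezo1cko libraries deviated together with correlations of 0.195, 0.161 and 0.07, although each correlated best with its own number. With a replicate block 11055 genes passed the adjusted p, beside 10556 without it, and no member's call changed. Depth limits the CD3 chains, Fyn and the WT level of Zap70, which rest on 0 to 15 reads per library.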
